A study of Rattus norvegicus with 6 samples.

Results

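Transcript levels of Tgfb1, Ccn2, Acta2 and Vim, which encode a profibrotic ligand, a matrix protein that it induces and 2 cytoskeletal proteins of myofibroblasts, were examined in rat kidney after sub-total nephrectomy (SNx). They were chosen by name from the table of estimated counts, by their Ensembl identifiers, and are 4 of its 23487 genes: Tgfb1 (ENSRNOG00000020652), Ccn2 (ENSRNOG00000015036, also called Ctgf), Acta2 (ENSRNOG00000058039) and Vim (ENSRNOG00000018087). All 4 passed the filter on low counts, which left 13644 genes for testing. Bulk RNA sequencing was performed on 6 kidney libraries of male Wistar Han rats, 3 from SNx animals and 3 from animals without an operation (NoOp). SNx removed part of the right kidney and later the whole left kidney, which leaves a remnant that scars and loses function over time. By the study's methods SNx animals were killed when serum creatinine or proteinuria passed a set limit relative to sham-operated animals. The time after surgery therefore differed between SNx animals, and how long the controls were kept is not stated separately. Ages of the animals are not given in the sources used here. By the labels and methods the controls had no surgery, although a figure legend of the study calls the controls of this experiment sham. Taken as unoperated, they do not allow loss of kidney tissue and surgery as such to be told apart. The deposited counts summed to between 9572955 and 13140864 per library, the smaller 3 totals being those of SNx. The methods also describe RNA integrity that varied widely between samples, without values for single libraries.

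Tgfb1 encodes transforming growth factor beta 1, which cells secrete in a latent form bound to the matrix. Once released, for instance by integrins, it binds paired kinase receptors that phosphorylate Smad proteins, and these enter the nucleus and change transcription. Ccn2, connective tissue growth factor, is a secreted matricellular protein and a classical target of both this pathway and the mechanically controlled Yap and TEAD factors. Acta2 encodes smooth muscle alpha actin, which vascular smooth muscle holds in the healthy kidney and which myofibroblasts, the contractile matrix-producing cells of a scar, acquire. Vim encodes vimentin, the intermediate filament of mesenchymal cells, which endothelium, podocytes, leukocytes and injured tubular epithelium hold as well.

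The promoters of the 4 genes are shown first, because smooth muscle genes and Ccn2 are textbook examples of control through short upstream motifs. Each runs from 250 bases before to 50 bases after the start of the gene, 5′ to 3′ on the gene's own strand, from RefSeq on the build GRCr8. The counts themselves were made on the older build Rn6. The regions are chr1:90324062-90324361 (+ strand) for Tgfb1, chr1:22624565-22624864 (- strand) for Ccn2, chr1:241172454-241172753 (- strand) for Acta2 and chr17:81577011-81577310 (+ strand) for Vim. Capitals mark the matches to 6 motifs searched on both strands, none of which overlapped another.
Tgfb1: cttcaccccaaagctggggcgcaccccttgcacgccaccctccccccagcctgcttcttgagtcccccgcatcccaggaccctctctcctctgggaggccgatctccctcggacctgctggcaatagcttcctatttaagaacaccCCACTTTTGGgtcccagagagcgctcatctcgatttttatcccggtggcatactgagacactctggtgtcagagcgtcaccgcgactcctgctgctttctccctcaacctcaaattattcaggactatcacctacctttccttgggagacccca
Ccn2: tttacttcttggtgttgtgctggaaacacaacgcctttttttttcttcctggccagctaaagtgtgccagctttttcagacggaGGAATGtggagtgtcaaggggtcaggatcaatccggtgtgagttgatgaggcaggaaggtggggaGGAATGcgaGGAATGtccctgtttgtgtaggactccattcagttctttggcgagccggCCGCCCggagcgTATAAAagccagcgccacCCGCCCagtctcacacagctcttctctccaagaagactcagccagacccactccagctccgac
Acta2: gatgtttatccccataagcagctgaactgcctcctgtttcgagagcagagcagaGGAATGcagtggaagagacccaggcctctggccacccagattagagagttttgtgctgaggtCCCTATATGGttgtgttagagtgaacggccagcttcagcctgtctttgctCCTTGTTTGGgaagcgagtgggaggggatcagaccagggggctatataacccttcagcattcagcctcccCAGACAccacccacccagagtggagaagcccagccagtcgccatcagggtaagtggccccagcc
Vim: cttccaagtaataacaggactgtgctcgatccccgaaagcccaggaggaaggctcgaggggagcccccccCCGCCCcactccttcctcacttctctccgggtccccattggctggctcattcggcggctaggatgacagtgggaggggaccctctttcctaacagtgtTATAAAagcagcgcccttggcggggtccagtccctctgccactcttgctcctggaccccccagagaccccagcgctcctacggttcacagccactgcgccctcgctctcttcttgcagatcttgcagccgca

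The Ccn2 window held the TEAD letters GGAATG at 3 places, starting 166, 101 and 92 bases before the start of the gene. It also held the TATA letters TATAAA and 2 reverse-strand matches to the GC box GGGCGG. The Acta2 window held 2 CArG boxes, the motif bound by serum response factor, counted here when at most 1 of its 6 middle bases was not A or T. They started 134 and 84 bases before the start of the gene. The Acta2 window also held 1 match to GGAATG and 1 to the Smad letters CAGACA. The Tgfb1 window held 1 CArG box, and the Vim window held 1 TATA match and 1 reverse-strand GC box. The AP-1 letters TGANTCA were in none of the 4 windows. Among all 33469 promoter windows of this table, 14.2% held GGAATG, 9.42% a CArG box, 21.1% CAGACA, 7.33% TGANTCA, 33.1% GGGCGG and 14.2% TATAAA. These matches describe letters and were not tested as binding sites.

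The design implies 1 comparison, SNx against NoOp, which asks how far each transcript differed between remnant and intact kidney. Tgfb1 and Vim rose in SNx, by 3.43-fold and 5.78-fold. Acta2 and Ccn2 were 2.21-fold and 1.51-fold higher on average, and neither passed the threshold. With limma and Benjamini-Hochberg adjustment over all genes tested, 2 of the 4 therefore had an adjusted p under 0.05, both of them higher in SNx, beside 35.8% of all genes called in either direction and 19.2% called higher. In 3 of the 4, every SNx library lay above every NoOp library, beside 27.1% of all genes tested. In bulk tissue, more cells of one type and more RNA per cell cannot be told apart. Levels are given as CPM, in which each count is scaled to a common library total with TMM factors, and the values of one gene should not be set against those of another, since they are not corrected for transcript length.

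**Figure D1:**
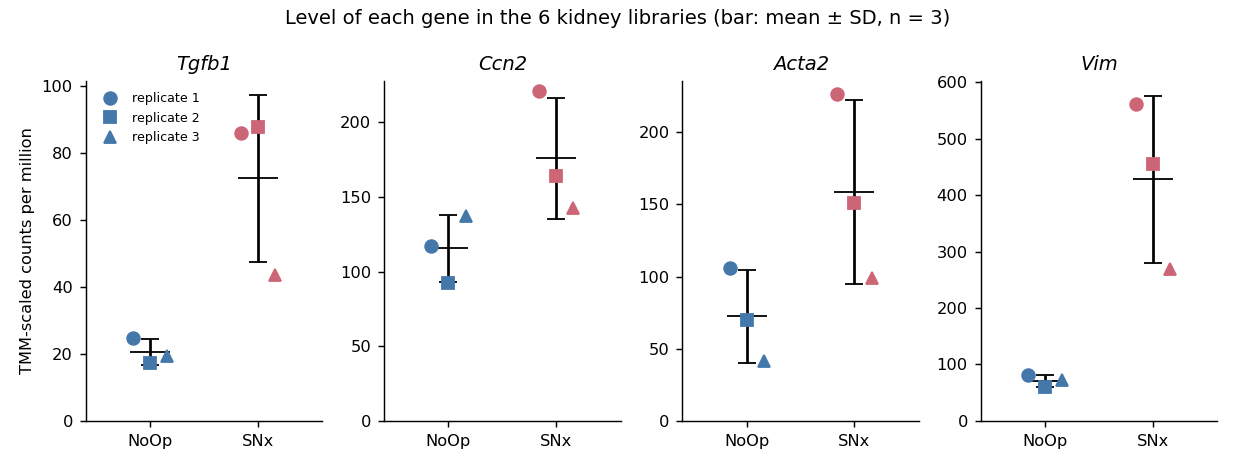
Level of Tgfb1, Ccn2, Acta2 and Vim in TMM-scaled CPM (vertical axis, from 0) in the 3 NoOp and 3 SNx libraries, with circle, square and triangle for replicates 1, 2 and 3 and a bar for the mean ± SD (n = 3). The groups stand apart for Tgfb1 and Vim, nearly touch for Ccn2 (137 against 143) and overlap for Acta2, and SNx replicate 3 is the lowest SNx library in all 4 panels.

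Tgfb1, the ligand, had estimated counts of 255, 220 and 200 in NoOp. The SNx libraries held 893, 1133 and 413, always in the order of replicates 1 to 3. On the CPM scale these were 24.8, 17.4 and 19.2 in NoOp and 86.0, 87.6 and 43.6 in SNx. All SNx libraries lay above all NoOp libraries, and SNx replicate 3, the lowest of its group, was still 1.76-fold above the highest NoOp library. The group means were 20.5 ± 3.85 and 72.4 ± 24.9 CPM (SD, n = 3 each). SNx exceeded NoOp by a log2 fold change of 1.78 (standard error 0.31), with a 95% interval from 1.06 to 2.495 and a limma adjusted p of 0.00573. Of all genes tested, 93.2% had a lower log2 fold change.

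Ccn2, the target, had 1202, 1167 and 1429 estimated counts in the NoOp libraries and 2296, 2121 and 1350 in the SNx libraries. The NoOp levels were 117, 92.3 and 137 CPM, and the SNx levels 221, 164 and 143 CPM. SNx replicate 3 lay only 1.04-fold above NoOp replicate 3, and its unscaled count was the lower of these 2 libraries. The means were 115 ± 22.5 and 176 ± 40.6 CPM (SD, n = 3 each). The difference as a log2 fold change was 0.60 (standard error 0.21), and its 95% interval ran from 0.12 to 1.07, or folds from 1.08 to 2.11. The unadjusted limma p was 0.0212 and the adjusted p 0.0565, so the difference did not pass at these 3 animals a group. Of all genes tested, 78.6% had a lower log2 fold change than Ccn2.

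Acta2, the contractile actin, varied most among the NoOp animals, with 1092, 879 and 434 estimated counts in replicates 1, 2 and 3. The SNx libraries held 2348, 1954 and 937 counts. As CPM these were 106, 69.5 and 41.7 in NoOp and 226, 151 and 99.0 in SNx. The groups overlapped, since SNx replicate 3 lay below NoOp replicate 1, while the other 2 SNx libraries were above all controls. The highest NoOp library was 2.55-fold above the lowest, against 1.49-fold for Ccn2, 1.42-fold for Tgfb1 and 1.34-fold for Vim. The means were 72.5 ± 32.4 and 159 ± 63.9 CPM (SD, n = 3 each). As a log2 fold change the difference was 1.15 (standard error 0.39), with a 95% interval from 0.23 to 2.06, or folds from 1.17 to 4.18, at a limma adjusted p of 0.0554. Actin genes are close in sequence, and whether transcript estimation moved reads between them was not tested.

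Vim, the intermediate filament gene, had 830, 761 and 747 estimated counts in the NoOp libraries and 5825, 5893 and 2540 in the SNx libraries. The levels were 80.7, 60.2 and 71.7 CPM in NoOp and 561, 455 and 268 CPM in SNx. The groups were far apart, with the lowest SNx library 3.33-fold above the highest NoOp library. The means were 70.9 ± 10.3 and 428 ± 148 CPM (SD, n = 3 each). The log2 fold change of 2.53 had a standard error of 0.26, a 95% interval from 1.93 to 3.13 and a limma adjusted p of 0.00176. Of all genes tested, 96.8% had a lower log2 fold change, and Vim stood at rank 107 when genes were ordered from the smallest p.

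The same SNx animal was lowest for each gene, whereas the order of the NoOp animals changed between genes. SNx replicate 3 had the lowest level of its group for all 4 genes, at 2.13, 1.24, 1.37 and 3.79 times the NoOp mean for Tgfb1, Ccn2, Acta2 and Vim. SNx replicate 1 was the highest SNx library for Ccn2, Acta2 and Vim, at 1.91, 3.12 and 7.91 times the NoOp mean, and SNx replicate 2 was the highest for Tgfb1, at 4.28 times. Among the controls, NoOp replicate 3 had the highest Ccn2 and the lowest Acta2 level. Without SNx replicate 3, Ccn2 and Acta2 passed the threshold, with log2 fold changes of 0.73 and 1.45 and limma adjusted p-values of 0.0270 and 0.0209, and without NoOp replicate 1 Acta2 passed at 1.46 with 0.0357. The adjusted p of Ccn2 ranged from 0.0187 to 0.183 and that of Acta2 from 0.0127 to 0.160 over 13 other settings. Under all of them Tgfb1 stayed at or below 0.0280 and Vim at or below 0.0122.

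**Figure D2:**
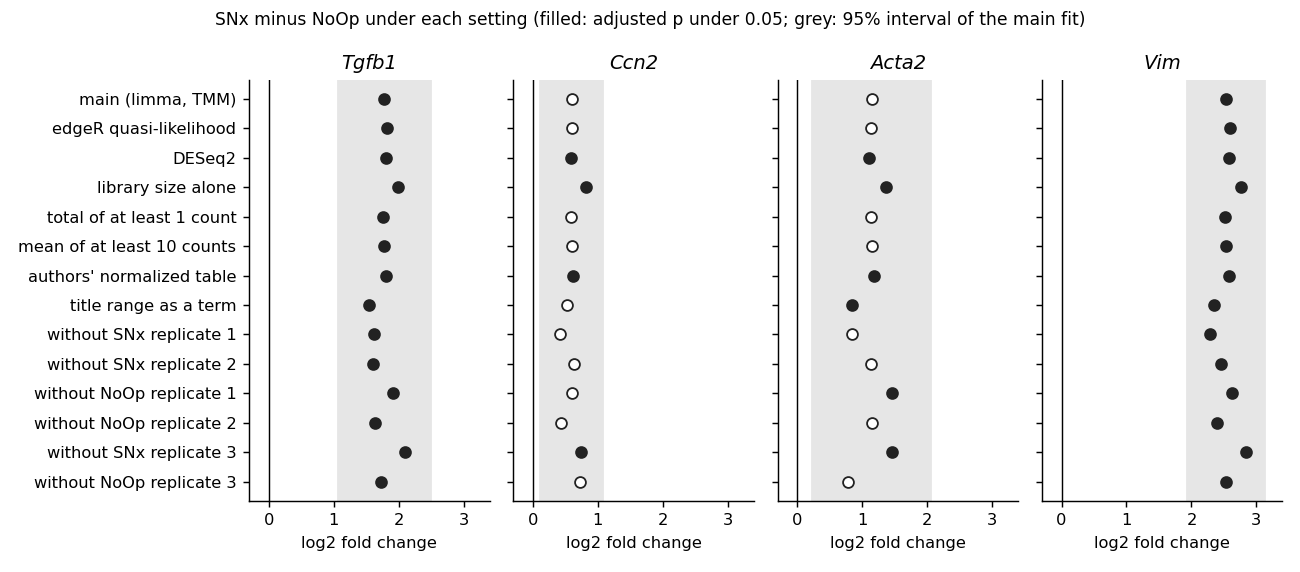
Log2 fold change (SNx minus NoOp, horizontal axis) of Tgfb1, Ccn2, Acta2 and Vim under the main fit and 13 other settings (rows), filled where the adjusted p was under 0.05, with the 95% interval of the main fit in grey. Every point lies above 0 and inside the grey interval, all points of Tgfb1 and Vim are filled, and those of Ccn2 and Acta2 are filled in 4 and 6 of the 13 other settings.

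The library titles carry numbers in 2 ranges. One covers NoOp replicate 1 together with replicates 1 and 2 of SNx, and the other covers the remaining 3 libraries. What the ranges mean is not stated. SNx replicate 3 is the only SNx library of the second range, so a difference of this animal and one of the range cannot be told apart. Within the first range the log2 level was higher in SNx by 1.80 for Tgfb1, 0.70 for Ccn2, 0.80 for Acta2 and 2.64 for Vim. Within the second range the differences were 1.25, 0.34, 0.88 and 2.03 in the same order. They kept their sign in both, and with 1 library of a group in each range they carry no test. With the range as a term in the model, Acta2 had a log2 fold change of 0.84 at a limma adjusted p of 0.0362, and Ccn2 had 0.52 at 0.0958.

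Scaling between libraries moved these values, because the median log2 fold change of all genes was 0.01 with TMM and 0.24 with library size alone. With library size alone the log2 fold change was 0.82 for Ccn2 and 1.37 for Acta2, and both passed, at limma adjusted p-values of 0.0187 and 0.0268. The median of all genes moved by nearly as much, so that relative to it the gap was similar. When the log2 values normalized by the authors were used instead (limma with a trended variance), Ccn2 and Acta2 lay just inside the threshold, with differences of 0.62 and 1.18 and adjusted p-values of 0.0482 and 0.0479. That table gave 1.81 for Tgfb1 and 2.57 for Vim.

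Ratios between the genes within a library do not depend on scaling, and they show how unequal the differences were. The log2 ratio of Ccn2 to Vim was 0.53, 0.62 and 0.94 in the NoOp libraries and -1.34, -1.47 and -0.91 in the SNx libraries. Ccn2 was thus 3.83-fold lower relative to Vim in SNx, and the groups did not overlap. The ratio of Acta2 to Vim was 0.40, 0.21 and -0.78 in NoOp and -1.31, -1.59 and -1.44 in SNx, a difference of -1.39 on the log2 scale. Its spread was wide in NoOp (SD 0.63) and narrow in SNx (SD 0.14, n = 3 each).

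Tgfb1 differed by more than its target Ccn2. The log2 ratio of Tgfb1 to Ccn2 was -2.24, -2.41 and -2.84 in NoOp and -1.36, -0.90 and -1.71 in SNx, a difference of 1.17. Relative to Vim, Tgfb1 was lower in SNx by a log2 difference of -0.77, with means of -1.80 ± 0.10 for the controls and -2.57 ± 0.17 for SNx (SD, n = 3 each). In each of these 4 ratios the groups did not overlap, and the exact two-sided permutation p was 0.1, the smallest that 3 libraries against 3 can give, or 0.15 after Benjamini-Hochberg adjustment over the 6 pairs. The other 2 ratios overlapped between groups. Tgfb1 to Acta2 differed by 0.62 (exact permutation p 0.3, adjusted 0.36) and Ccn2 to Acta2 by -0.55 (exact permutation p 0.4, adjusted 0.4). The Ccn2 to Acta2 ratio of NoOp replicate 3 stood at 1.72, above 0.14 and 0.41 in the other controls, and without that library the difference was -0.07. Without NoOp replicate 1 it was -0.86. Leaving out NoOp replicate 3 also moved the difference in Tgfb1 to Acta2, to 0.93, at an exact permutation p of 0.1, again the smallest possible.

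**Figure D3:**
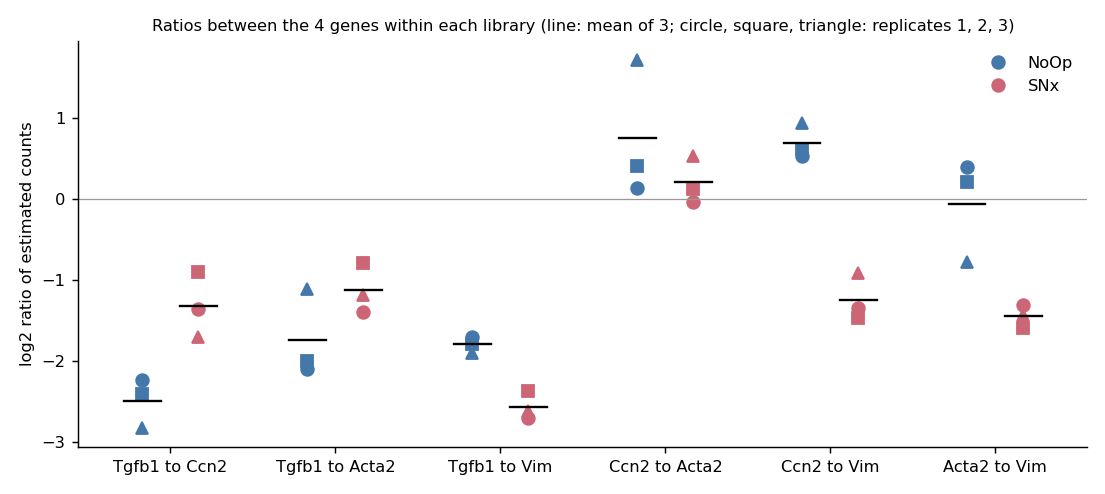
Log2 ratio of the estimated counts of each pair among Tgfb1, Ccn2, Acta2 and Vim (vertical axis) in every NoOp and SNx library, with a line at the mean of 3. The groups stand apart in the pairs Tgfb1 to Ccn2, Tgfb1 to Vim, Ccn2 to Vim and Acta2 to Vim, and the NoOp triangle at 1.72 stands above all other libraries in Ccn2 to Acta2.

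Other genes of the pathway were taken from 9 lists with 91 symbols in all, 4 of them the genes above. An identifier was found for 26 of the others and values for the remaining 61 are not analysed here. The pairing of identifier and symbol came from a shortened supplement of the study, which lists the genes that ranked first in the study's own tests, and 98.4% of its genes tested here were called. That all 26 were called is therefore largely fixed by how the names were found. Their direction is not fixed in this way: 25 were higher and 1 lower, beside 57.4% higher among all called genes of that supplement. The lists were drawn up with earlier results of these data known, so the direction was open to selection through the lists. These counts and the values below are a description. The sizes of their differences were selected too, since the names came from genes that ranked first in tests. The place of the 4 genes among them is therefore not a result.

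In the list with the ligands, Tgfb2, a related ligand, had 8.85, 5.93 and 5.57 CPM in NoOp and 30.1, 39.4 and 17.01 CPM in SNx. Tgfb2 thus had a log2 fold change of 2.07 (standard error 0.40). Ltbp2 encodes a matrix protein named for the latent TGF-beta binding family, and its value says nothing about stored ligand. The log2 fold change of Ltbp2 was larger, 4.63 with a standard error of 0.40. Its means were 4.66 ± 1.05 CPM in NoOp and 119 ± 36.0 CPM in SNx (SD, n = 3 each). No other listed gene of that family could be followed. No receptor or Smad gene could be followed, among them Tgfbr1, Tgfbr2, Smad3 and the inhibitor Smad7, and neither could Tgfb3. Among the inhibitors, the Smad corepressors Tgif1 and Tgif2 were higher by 1.73 and 1.51 and Pmepa1, which limits receptor signalling, by 1.02 on the log2 scale, with standard errors of 0.15, 0.32 and 0.12.

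The targets did not move alike. Tgfbi, a matrix protein gene named for its induction by TGF-beta, was lower, with 106, 88.0 and 87.4 CPM in NoOp and 35.0, 29.1 and 52.5 CPM in SNx. For Tgfbi the log2 fold change was -1.32 (standard error 0.21). SNx replicate 3 was the SNx library nearest to the controls. Tgfb1i1, an adaptor of focal adhesions, and Ankrd1, a Yap-responsive gene, had values of 1.47 and 1.43, and the Yap partner Tead2 of the same list had 2.003. Ccn2, at 0.60, lay below each of these except Tgfbi. Since these genes could be named only through their rank in the study's tests, that order is not a result about Ccn2. No other member of the CCN family could be followed.

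Of the 17 listed smooth muscle genes, 8 besides Acta2 had an identifier. These 8 had log2 fold changes from 1.10 to 3.02, beside 1.15 for Acta2. The highest were Actg2, another smooth muscle actin, at 3.02, Cnn1, which encodes calponin, at 2.28 and Tagln, which encodes transgelin, at 1.68. Their standard errors were 0.64, 0.39 and 0.32. The NoOp libraries held only 50, 24 and 9 counts of Actg2 and 53, 23 and 15 of Cnn1. The folds of Actg2 and Cnn1 thus rest on few control counts. Tagln had 127, 106 and 72.7 CPM in the NoOp libraries and 435, 386 and 198 CPM in the SNx libraries, the same order of animals as for Acta2, but without an overlap of the groups. The lowest were Cnn2 at 1.39, the caldesmon gene Cald1 at 1.15 and the tropomyosin gene Tpm4 at 1.10. Cald1 had a log2 fold change close to that of Acta2 with a standard error of 0.13 in place of 0.39. Myh11, the smooth muscle myosin heavy chain, was not followed.

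Of the 10 listed fibroblast genes, 3 had an identifier. The matricellular genes Postn and Tnc had log2 fold changes of 5.34 and 3.09, and S100a4 had 2.26. Postn had only 3 to 11 counts in the NoOp libraries against 143 to 420 in SNx, so its fold rests on very few control counts. Of the 13 listed intermediate filament genes, 6 besides Vim had an identifier, and Vim had the largest value among those followed. The keratins of simple epithelium Krt19 and Krt18 had 2.38 and 1.65, the muscle filament gene Des 1.91, the lamin gene Lmnb1 1.47 and Krt8 and Krt7 1.10 and 0.94.

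**Figure D4:**
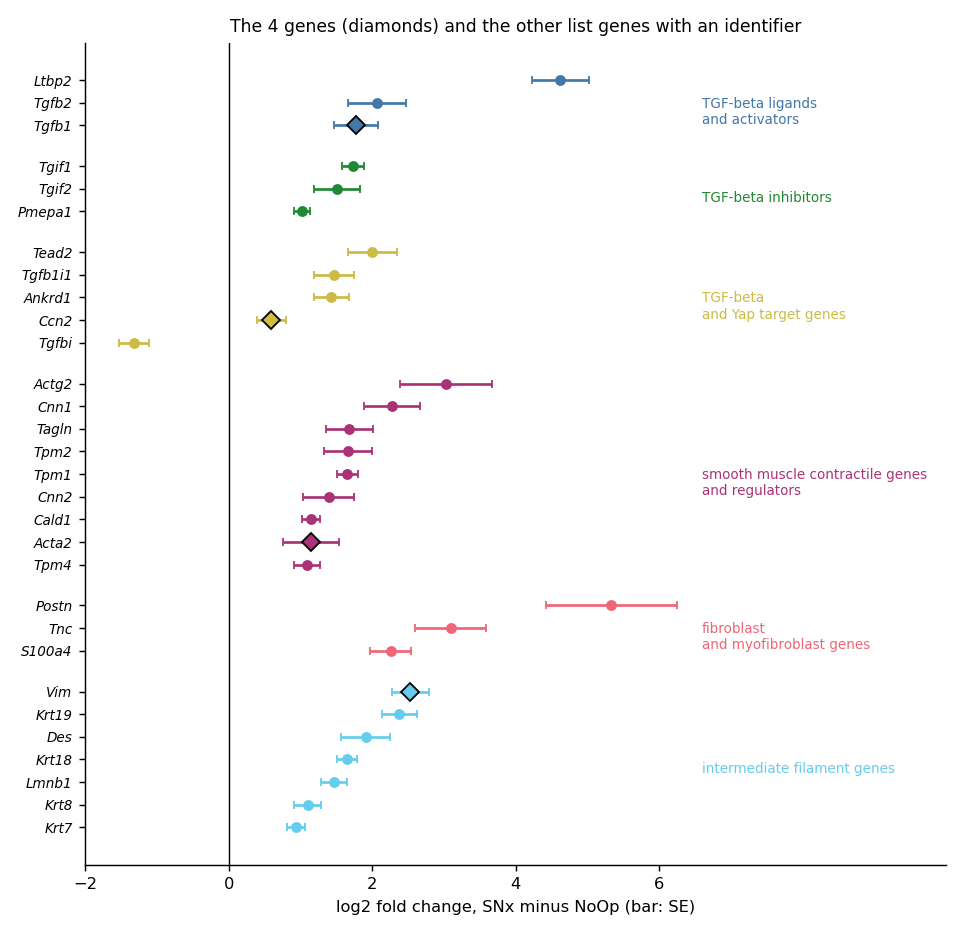
Log2 fold change (SNx minus NoOp, horizontal axis, bar: standard error) of Tgfb1, Ccn2, Acta2 and Vim (diamonds) and of the 26 other list genes with an identifier (circles), coloured by list. Ccn2 at 0.60 is the lowest value above 0, Tgfbi at -1.32 is the one below it, and Postn at 5.34 the highest. The circles had names because they ranked first in the study's tests, so the place of the diamonds among them is not a result.

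Levels of markers of other cell types differed between the groups as well. Only 10 genes of the 7 marker lists had an identifier, and none was at 0 in any library. These identifiers came from the same supplement, so that each of the 10 was called is largely fixed by how the names were found, and their levels are given as a description. The proximal tubule markers (4 of 6: Slc34a1, Lrp2, Cubn and Slc22a6) summed to between 7135 and 8111 CPM in NoOp, as kidney would hold, and to between 876 and 2602 CPM in SNx. The leukocyte markers (3 of 6: Ptprc, Cd68 and Csf1r) summed to between 34.0 and 41.2 CPM in NoOp and between 103 and 193 CPM in SNx. Of the vascular smooth muscle markers, 2 of 4 were followed, Cnn1 and Des. They summed to between 17.3 and 31.2 CPM in NoOp and between 54.2 and 107 CPM in SNx. Both are among the list genes already described, so the sum holds no further genes. Des made up most of it, with means of 19.3 CPM in NoOp and 73.6 CPM in SNx. Cnn1 had means of 2.80 and 11.6 CPM. Whether either gene marks vascular smooth muscle alone was not tested. The only fibroblast marker followed, Col1a1, lay between 21.8 and 36.9 CPM in NoOp and between 116 and 876 CPM in SNx. No marker of endothelium, podocytes or the distal nephron was followed.

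SNx replicate 3 was the SNx library nearest to the controls for each of these 4 marker levels, as it was for the 4 genes. On the log2 scale relative to the NoOp mean, it stood at 1.49 for the leukocyte sum and -1.54 for the proximal tubule sum, against 2.40 and -2.41 in SNx replicate 1 and 2.29 and -3.11 in SNx replicate 2. Vim stood at 2.98, 2.68 and 1.92 in SNx replicates 1, 2 and 3 and Tgfb1 at 2.07, 2.10 and 1.09. The part of these cell types in the levels of Tgfb1, Ccn2, Acta2 and Vim was not tested.

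**Figure D5:**
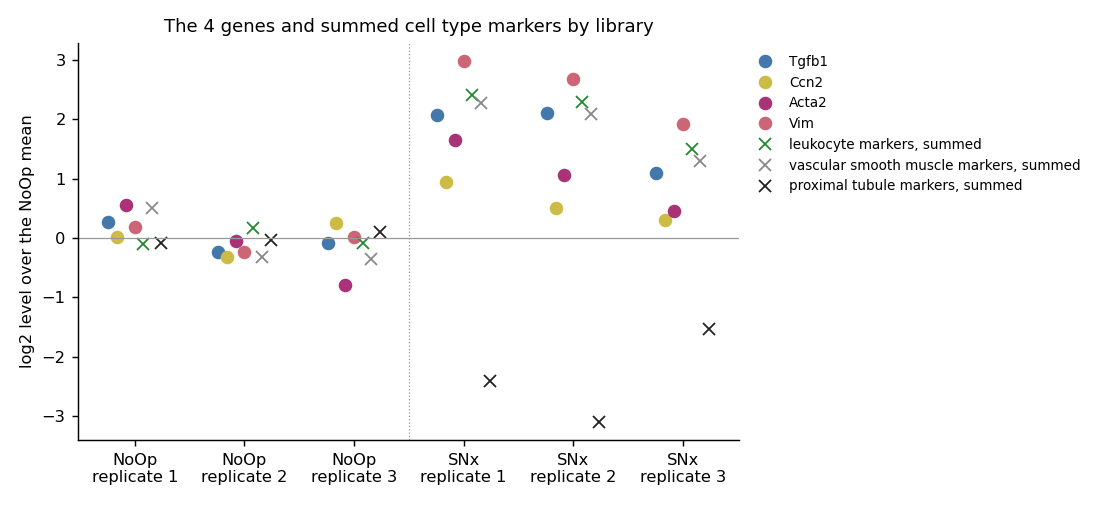
Log2 level over the NoOp mean (vertical axis) of Tgfb1, Ccn2, Acta2 and Vim (circles) and of the summed leukocyte, vascular smooth muscle and proximal tubule markers (crosses) in each of the 6 libraries. In every SNx library Vim is the highest and the proximal tubule sum the lowest of the 7, and SNx replicate 3 lies nearest to 0 for all of them.

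The likeness of other genes to each pattern was described by the Pearson correlation of log2 CPM over the 6 libraries, which the 2 groups dominate. Of the 13643 other genes, 1182 had a value of at least 0.95 with Vim and 1008 with Tgfb1, but 126 with Acta2 and 34 with Ccn2. Symbols came from the same shortened supplement, 98.4% of whose genes tested here were called, so the named genes were preselected for a difference. Among the genes with a symbol, the most alike were Efemp2, Krt8 and Mgp for Tgfb1 and Tagln2, Cthrc1 and Npc2 for Vim, from 0.9986 to 0.9997. Those for Acta2 were Ctss, Il34 and Igsf8, at 0.952 to 0.960, and those for Ccn2 were Igfbp1, Paqr8 and Mvp, at 0.937 to 0.942. None of the 34 genes at 0.95 or more with Ccn2 had a symbol, so the genes most alike to it are not named. Between the genes themselves, Tgfb1 and Vim were most alike at 0.987 and Ccn2 and Acta2 least, at 0.681.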

How the data were processed

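Strand-specific, paired-end libraries were prepared from RNA depleted of ribosomal RNA, although the labels list polyA RNA. The authors quantified transcripts against the Rn6 transcriptome (the submitters' processing notes name Salmon and limma), summarised them per gene with tximport as length-scaled TPM and applied voom. Whether the deposited whole numbers are length-scaled is not stated. The Salmon version and annotation release are not given in the sources used here. The deposited files hold the authors' estimated counts, as whole numbers for 23487 genes, and log2 CPM values from voom for 12135 genes. All 12 single-library files held the same values as their series column. Total estimated counts ranged from 9572955 to 13140864 per library. The smallest count behind a reported member value was 200, with an exact 95% Poisson interval from 173 to 230 for counting error only.

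Groups came from the treatment label. Replicates were numbered in order of deposition, and 1 library was made per animal by the study's methods. No pair within a group agreed within counting error (chi-square per degree of freedom 9.43 or more). Genes were filtered with filterByExpr of edgeR 4.0.16 (minimum count 10, minimum total 15), scaled with TMM and tested with voom and limma 3.58.1 in R 4.3.3, two-sided, with Benjamini-Hochberg adjustment over 13644 genes and a threshold of 0.05. Log2 CPM used a prior count of 2. Other settings tried were edgeR's quasi-likelihood test, DESeq2 1.42.0, library size alone, filters at a total of 1 and a mean of 10 counts, the authors' log2 table, the title range as a term and leaving out each library. The scripts were tested on simulated data. The genes and lists were chosen with earlier results of these data known. The named genes are the 4 members, the 3 highest and 3 lowest called genes of each list and 9 others chosen by name (3 of which had an identifier). The 3 most alike per member among genes with a symbol are named too. The RefSeq table matched 0 identifiers, so symbols came from the rule for the 4 members and from the study's supplement otherwise, as names only. A further gene was taken out of the lists and is not reported here.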

Additional observations from a re-analysis of the deposited data

How the results depend on the processing

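Over 13 other settings, the log2 fold changes of Tgfb1 (1.54 to 2.10) and Vim (2.29 to 2.84) kept their direction and stayed past the threshold. Ccn2 and Acta2 kept their direction in all 13 and crossed the threshold in 4 and 6 of them. Ccn2 passed with DESeq2 (0.59, adjusted p 0.0352), library size alone (0.82) and the authors' normalized table (0.62), and ranged from 0.41 to 0.73 when 1 library was left out. Acta2 passed with DESeq2 (1.11, adjusted p 0.0127), library size alone (1.37), the authors' normalized table (1.18) and the title range as a term (0.84), and ranged from 0.79 to 1.46 when 1 library was left out. Library size alone leaves out the TMM factors, which were 0.99 to 1.21 in SNx and 0.88 to 0.96 in NoOp. Without them fold changes moved upwards, and the cause of the other crossings was not tested. Over all genes, 4891 were called, and from 2857 (without NoOp replicate 3) to 5764 (without SNx replicate 3) when 1 library was left out. The higher genes numbered 2620, and from 1497 to 3201 in those fits. The lower genes numbered 2271, from 1360 to 2563 in those fits and 1402 with library size alone, where 70.7% of the calls were higher against 53.6% with TMM. From 25 to 26 of the 26 other list genes were called. The signs of all 6 within-library ratios were kept in 8 other settings each. No paired analysis was made, because the SNx and NoOp libraries came from different animals. With 3 animals a group, the intervals of Ccn2 and Acta2 reach close to 0, and their differences are not shown to be absent.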
